A study of Mus musculus with 12 samples.

Results

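The genes described here encode the factors that start and extend protein chains on the ribosome, together with their direct regulators. They were chosen by symbol, as every gene beginning with Eif and a digit or with Eef1 or Eef2, leaving out the eIF2 kinases (Eif2ak) and the Y-linked gene Eif2s3y. This gave 62 of the 18211 genes in the table, of which 61 passed the filter on low counts, against 13563 genes tested in all. The remaining gene, Eif4e1b, had at most 1 expected count in any tumor.

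The samples were 12 tumors grown from MC38 cells, a mouse colon adenocarcinoma line injected under the skin of female C57BL/6 mice that were 5 weeks old. From day 7 the mice received vehicle (CK), PB-020, anti-PD-1, or PB-020+anti-PD-1, called the combination below, and each group had 3 tumors. PB-020, an inhibitor of IGF-1R (a growth factor receptor), was gavaged daily at 50 mg/kg. Anti-PD-1, an antibody against a T cell checkpoint receptor, was injected at 200 µg per mouse on days 9, 12, 15 and 18. No source used here says whether the 3 samples of a group came from separate mice, so p values measure the spread between these samples.

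Translation begins when eIF2 carries the initiator tRNA to the small ribosomal subunit, and eIF2B recharges eIF2 with GTP after each round. The eIF4F complex binds the mRNA cap and unwinds the leader, eIF3 holds the small subunit on it, and eEF1 and eEF2 then deliver tRNAs and move the ribosome along. In tumor cells these steps lie downstream of growth factor signaling through mTORC1 and of the stress kinases that phosphorylate eIF2.

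The tumors were sequenced to similar depth, from 16545394 to 17217035 expected counts. Anti-PD-1 tumor 1 stood apart: 12 muscle markers summed to 1446 TPM there (transcript abundance corrected for gene length and scaled to a common library total) and to between 28.7 and 153.6 TPM in the other 11 tumors. Its ribosomal protein genes took 18.4% of TPM, against 22.2% to 25.8% elsewhere. Of 5 epithelial markers, which would mark carcinoma cells, Krt8, Krt18, Epcam and Krt19 were at or near 0, at no more than 0.25, 0.27, 0.89 and 0.84 TPM. Cdh1, which encodes E-cadherin, was low but measured in every tumor, at 2.85 to 6.93 TPM. The 9 measured T cell markers summed to between 22.7 and 31.0 TPM in CK, 31.4 and 37.3 in PB-020, 46.4 and 125.5 in anti-PD-1 and 58.6 and 86.2 in combination tumors. These are bulk samples, in which fewer cells of a type and less RNA per cell cannot be told apart.

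The factors were among the abundant transcripts. Their median level over the 12 tumors was 165.9 TPM, against 19.4 TPM for all genes tested, and the 62 genes made up between 2.69% and 3.07% of TPM in each tumor. Eef1a1, which delivers aminoacyl-tRNAs to the ribosome, was the highest at a mean of 13170 TPM and alone gave 43.0% to 47.9% of the summed level of the factors. Next in order were Eef2, the translocase, at 2033 TPM, Eif5a, which helps ribosomes through difficult peptide bonds, at 1345, and the helicase Eif4a1 at 1169. At the other end stood Eif4e1b (0.011 TPM), Eef1a2 (1.11) and the methyltransferase gene Eef1akmt3 (1.27).

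**Figure D1:**
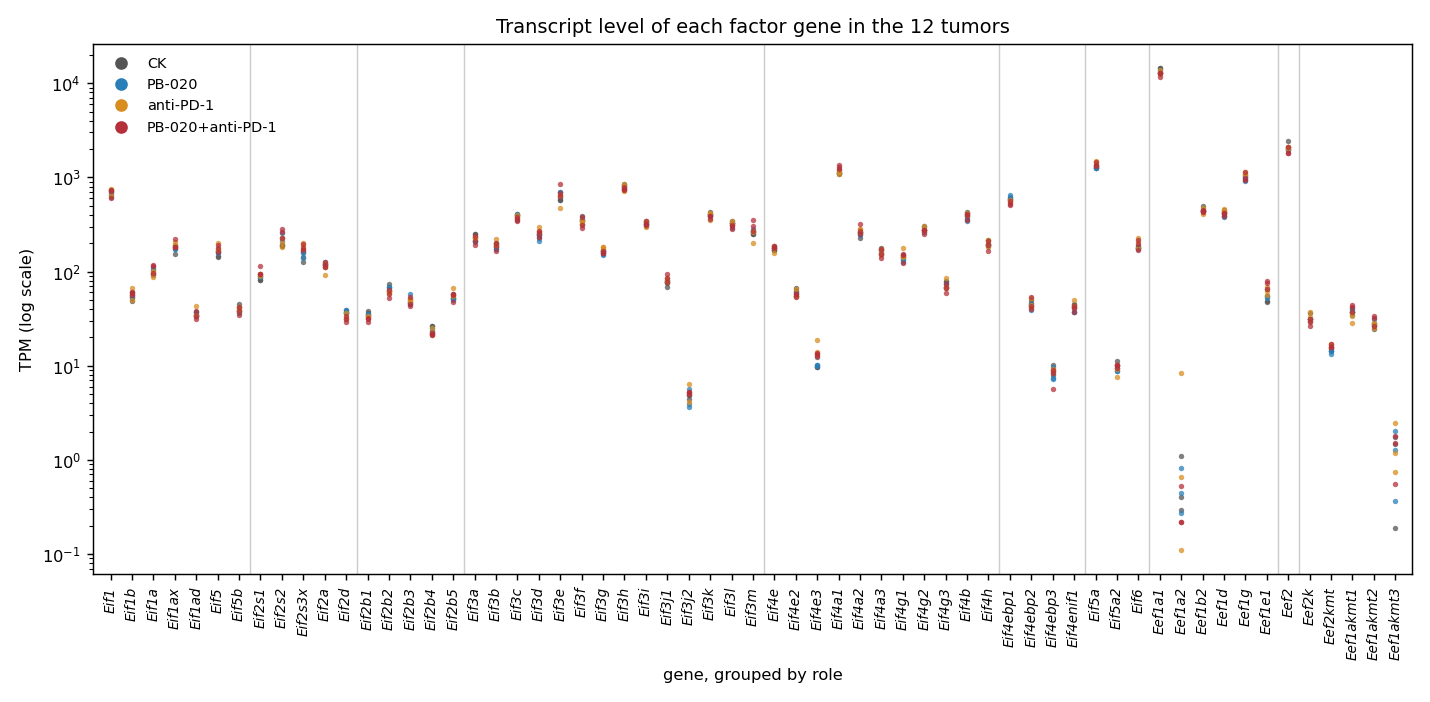
TPM of 61 factor genes in each of the 12 tumors, on a log axis, with 1 point per tumor, colored by group and with genes ordered by role; Eif4e1b, at 0 in most tumors, is not drawn. Eef1a1 lies above all other factors, most genes hold their level closely across tumors, and Eef1a2 has a single tumor, anti-PD-1 tumor 1, far above the rest.

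Paralogs differed widely in level. Per length, Eif4a1 exceeded Eif4a2 by 4.02 to 4.96 times in the 12 tumors, Eif5a exceeded Eif5a2 by 110.1 to 196.9 times, and Eif4ebp1 exceeded Eif4ebp2 by 10.7 to 15.1 times. Eif3j1 exceeded Eif3j2 by 13.5 to 22.5 times and Eif1ax exceeded Eif1a by 1.53 to 2.19 times. The sequences of these last pairs are close and the counting can divide reads between them, so the split within each pair is uncertain.

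Treatment with the combination was followed by higher transcript levels of 8 factors and lower levels of none. All 3 subunits of eIF2 rose (Eif2s1, Eif2s2 and Eif2s3x), together with Eif5, Eif3j1, Eif4a1, Eif4e3 and Eef1e1, by 1.23 to 1.54 times. The 5 subunits of eIF2B did not pass the test, nor did the core elongation factors Eef1a1, Eef1b2, Eef1g and Eef2. Of the 61 genes tested, 13.1% were raised at an adjusted p under 0.05, against 8.35% of all genes, and 0 were lowered, against 9.60% of all genes. The shares here and below are not adjusted for transcript level. Its median was 165.9 TPM for the factors and 19.4 TPM for all genes tested. All p values are from edgeR's quasi-likelihood test, two-sided, with Benjamini-Hochberg adjustment over the 13563 genes.

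The promoters of the 3 eIF2 genes are shown because these subunits of a single complex were all raised in the combination. That of Eif4a1 is shown because it held the most of the motifs searched among the raised genes. The stretches are the bases just before the annotated start, 120 for the eIF2 genes and 250 for Eif4a1, from RefSeq on GRCm38.p6, written in the direction of the gene. Capitals mark the E-box (letters CACGTG), the CCAAT box (letters CCAAT), the core bound by ETS factors (letters CCGGAAG) or the core bound by NRF1 (letters GCATGCGC), on either strand.
Eif2s1, chr12:78861952-78862071, plus strand: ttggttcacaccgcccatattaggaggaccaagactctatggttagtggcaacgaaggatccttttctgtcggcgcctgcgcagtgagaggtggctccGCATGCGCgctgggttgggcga
Eif2s2, chr2:154892907-154893026, minus strand: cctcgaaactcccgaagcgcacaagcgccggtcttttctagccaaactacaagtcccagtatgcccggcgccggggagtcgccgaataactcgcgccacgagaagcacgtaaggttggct
Eif2s3x, chrX:94212652-94212771, minus strand: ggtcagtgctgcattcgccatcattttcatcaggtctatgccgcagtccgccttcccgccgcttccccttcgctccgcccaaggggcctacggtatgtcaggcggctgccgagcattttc
Eif4a1, chr11:69672424-69672673, minus strand: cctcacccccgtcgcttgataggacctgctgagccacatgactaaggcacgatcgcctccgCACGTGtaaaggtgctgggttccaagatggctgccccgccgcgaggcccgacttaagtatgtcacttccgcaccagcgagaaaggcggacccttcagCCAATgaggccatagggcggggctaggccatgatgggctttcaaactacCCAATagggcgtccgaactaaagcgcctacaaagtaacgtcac

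Eif2s1 held an NRF1 core close to its start, Eif4a1 held an E-box and a pair of CCAAT boxes, and the stretches of Eif2s2 and Eif2s3x held none of the letters searched. Among the 46 factors with a promoter in the table, 11 (23.9%) held an E-box within 250 bases before the start, 12 (26.1%) an ETS core, 13 (28.3%) a CCAAT box and 5 (10.9%) an NRF1 core. Over all 27025 genes with a promoter these shares were 6.86%, 7.83%, 37.5% and 2.56%. These genes were not filtered for expression, whereas the factors were among the abundant transcripts, so the 2 sets are unlike. The 7 raised genes with a promoter in the table (Eif4e3 had none) held an E-box in 1 case, a CCAAT box in 2, an NRF1 core in 1 and an ETS core in 0. These are counts of letters, not of bound sites.

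eIF2 is the complex that brings the initiator tRNA, and its alpha subunit is the target of the stress kinases. Eif2s1, which encodes eIF2 alpha (chr12:78862072-78887010 on GRCm38.p6), gave 139.2, 138.4 and 132.2 CPM (counts scaled to a common library size) in the CK tumors and 197.1, 171.9 and 160.6 in the combination tumors. PB-020 tumors gave 153.8, 154.5 and 160.1 CPM and anti-PD-1 tumors 141.1, 158.1 and 165.5. Every treated tumor lay above every CK tumor. The log2 change was 0.37 ± 0.079 (SE, n = 3 and 3) in the combination, with an adjusted p of 0.0086. It was 0.19 ± 0.079 in PB-020 (adjusted p = 0.87) and 0.18 ± 0.079 in anti-PD-1 (adjusted p = 0.16), by the same edgeR test.

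Eif2s2, the beta subunit (chr2:154871410-154892906), gave 255.1, 241.6 and 244.0 CPM in CK and 352.1, 404.3 and 304.8 in combination tumors. Its levels were 294.1, 347.1 and 319.1 CPM with PB-020 and 221.2, 263.8 and 310.0 with anti-PD-1. The PB-020 and combination tumors all exceeded CK, whereas anti-PD-1 tumor 1 was below it. The log2 change was 0.52 ± 0.12 in the combination (adjusted p = 0.013) and 0.37 ± 0.12 in PB-020, where it had the smallest p of any factor (adjusted p = 0.87).

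Eif2s3x, the gamma subunit that binds the tRNA and GTP (chrX:94188709-94212651), gave 314.4, 261.7 and 239.0 CPM in CK, 355.0, 336.8 and 374.2 with anti-PD-1 and 390.0, 358.3 and 343.4 with the combination. PB-020 tumors, at 282.3, 327.3 and 314.8 CPM, overlapped CK. The log2 change was 0.42 ± 0.097 in the combination (adjusted p = 0.012) and 0.39 ± 0.097 in anti-PD-1 (adjusted p = 0.030). Eif2s3y, the Y-linked copy that the selection leaves out, was measured in every tumor at 7.44 to 15.1 TPM, although the methods give female mice. The Y-linked genes Ddx3y, Kdm5d and Uty were measured there too, at 0.81 to 7.45 TPM. Eif2s3y changed by 0.47 ± 0.18 in the combination (adjusted p = 0.086), and reads may be divided between the copies.

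eIF2B exchanges GDP for GTP on eIF2. Its subunits Eif2b1, Eif2b2 and Eif2b4 gave log2 changes of -0.15, -0.16 and -0.14 in the combination and Eif2b3 and Eif2b5 gave 0.048 and 0.071, with adjusted p values from 0.17 to 0.77. Summed over subunits, eIF2 transcripts lay between 396.9 and 435.5 TPM in CK and between 501.7 and 572.0 in combination tumors. Those of eIF2B lay between 219.4 and 242.4 in CK and between 197.2 and 220.2 in combination tumors. The ratio of the sums was 1.72 to 1.86 in CK, 1.97 to 2.35 with PB-020, 2.01 to 2.31 with anti-PD-1 and 2.31 to 2.76 with the combination. No treated tumor reached down to the CK range in this ratio, and it is given as a description without a test.

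**Figure D2:**
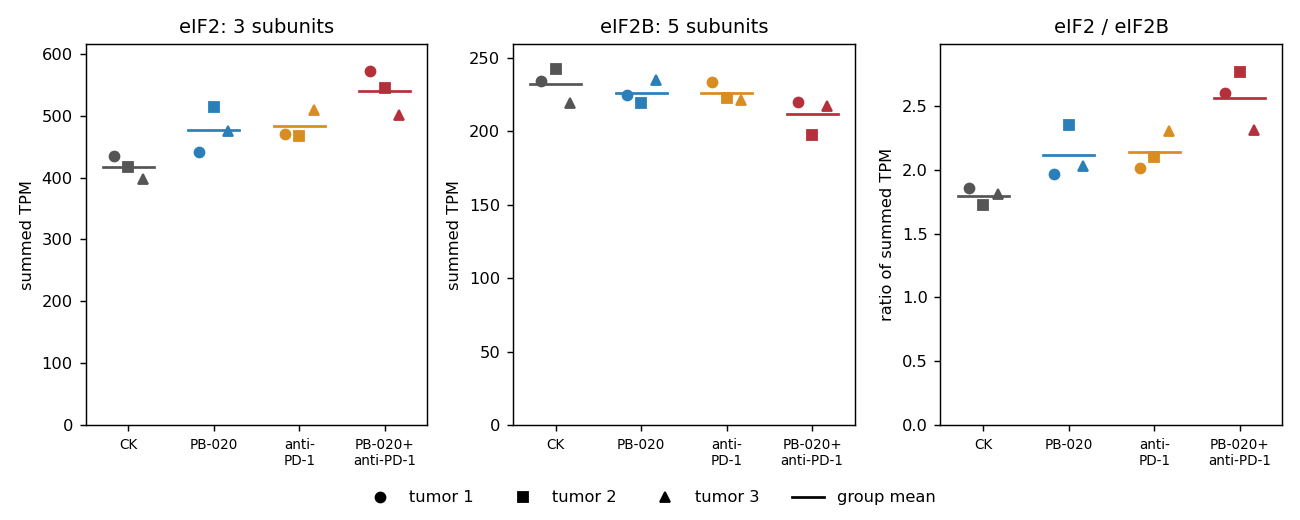
Summed TPM of the 3 eIF2 subunits and of the 5 eIF2B subunits, and their ratio, in each tumor (circle, square and triangle for tumors 1, 2 and 3), with a line at each group mean and axes from 0. The eIF2 sum was 396.9 to 435.5 TPM in CK and 501.7 to 572.0 in combination tumors, while the eIF2B sums of these groups overlapped.

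Eif2a and Eif2d, which bring tRNA to the ribosome outside the eIF2 route, did not move with eIF2 in the combination. Their log2 changes were 0.090 ± 0.11 (adjusted p = 0.60) and -0.13 ± 0.075 (adjusted p = 0.23). Eif2d gave 39.5, 39.9 and 37.9 CPM in CK, 43.0, 41.5 and 42.2 with PB-020 and 35.3, 34.5 and 37.4 with the combination. Its PB-020 tumors thus all lay above CK in CPM and its combination tumors all below. The combination tumors lay below CK in TPM too. The PB-020 tumors, at 36.89 to 38.76 TPM, lay within the CK range of 35.89 to 39.25.

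Among the scanning and start codon factors, Eif5 makes eIF2 hydrolyze GTP when the start codon is met. Eif5 (chr12:111538101-111546753) gave 317.3, 337.1 and 297.6 CPM in CK, 392.4, 368.2 and 371.1 with anti-PD-1 and 415.4, 376.1 and 383.5 with the combination, and PB-020 tumors gave 347.1, 357.0 and 366.2. All treated tumors exceeded all CK tumors in CPM. In TPM CK tumor 2, at 164.2, was above all 3 PB-020 tumors (155.9 to 163.9) and combination tumor 2 (161.6). The log2 change was 0.30 ± 0.068 in the combination (adjusted p = 0.011), 0.25 ± 0.068 in anti-PD-1 (adjusted p = 0.041) and 0.17 ± 0.068 in PB-020 (adjusted p = 0.87).

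Eif1a and Eif1ax, near-identical genes for the scanning factor eIF1A, gave log2 changes of 0.29 ± 0.096 and 0.27 ± 0.099 in the combination, with adjusted p values of 0.051 and 0.070. Eif1, which guards start codon choice, changed by 0.12 ± 0.077 (adjusted p = 0.31), and Eif5b, which joins the large subunit, by -0.043 ± 0.075 (adjusted p = 0.76).

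The scaffold eIF3 had 14 genes tested, and 1 rose in the combination, where 8.35% of all genes rose. Eif3j1 (chr2:122028580-122053632), for the loosely bound j subunit, gave 95.8, 93.4 and 84.6 CPM in CK and 121.5, 106.6 and 107.8 in combination tumors. PB-020 tumors gave 102.3, 104.9 and 104.5 CPM and anti-PD-1 tumors 100.6, 99.4 and 106.1, so that every treated tumor was above CK. The log2 change was 0.29 ± 0.068 in the combination (adjusted p = 0.012). The median over eIF3 was 0.017, with Eif3a, the largest subunit, at -0.058 ± 0.093 (adjusted p = 0.70).

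Eif3e and Eif3m, for other subunits of the complex, had larger changes with a wide spread. Eif3e gave 453.9, 446.8 and 435.5 CPM in CK, 548.5, 730.5 and 495.9 in the combination and 340.2, 511.5 and 505.9 with anti-PD-1. Combination tumor 2 was the highest of the 12 and anti-PD-1 tumor 1 the lowest. Its log2 change in the combination was 0.41 ± 0.16 (adjusted p = 0.093), and that of Eif3m was 0.38 ± 0.14 (adjusted p = 0.085). Eif3d, which can itself bind the cap, gave 0.22 ± 0.068 in anti-PD-1 (adjusted p = 0.064).

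In the eIF4F complex, the helicase and a cap-binding protein of low abundance rose in the combination, while the scaffold and the main cap-binding protein did not pass the test. Eif4a1 (chr11:69666936-69672423) gave 1099, 1006 and 1052 CPM in CK and 1345, 1370 and 1188 in the combination, a log2 change of 0.31 ± 0.089 (adjusted p = 0.031). PB-020 tumors gave 1122, 1171 and 1147 CPM and anti-PD-1 tumors 976.7, 1098 and 1195. The PB-020 and combination tumors were above CK in CPM and the anti-PD-1 tumors overlapped it. PB-020 tumor 1, at 1112 TPM, was below CK tumor 1, at 1125 TPM. The paralog Eif4a2 changed by 0.23 ± 0.093 in the combination (adjusted p = 0.095).

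Eif4e3 (chr6:99621879-99692873), an atypical member of the eIF4E family, gave 12.9, 12.3 and 15.9 CPM in CK and 14.1, 13.7 and 13.8 with PB-020. It gave 23.1, 17.3 and 19.2 CPM with anti-PD-1 and 17.4, 19.2 and 18.3 with the combination. Tumors that received the antibody all lay above those that did not. The log2 change was 0.54 ± 0.12 in anti-PD-1 (adjusted p = 0.020), 0.42 ± 0.12 in the combination (adjusted p = 0.031) and 0.018 ± 0.12 in PB-020 (adjusted p = 0.99).

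The T cell marker sum was also higher in the 6 tumors that received the antibody, at 46.4 to 125.5 TPM, than in the 6 that did not, at 22.7 to 37.3 TPM. Of the 9 markers tested, 7 rose with the antibody alone and 8 with both agents, and none was at 0 in all tumors. The part of these cells in the level of Eif4e3 was not tested. Anti-PD-1 tumor 1 was the highest in both. Without that tumor the change of Eif4e3 in anti-PD-1 was 0.41, with an adjusted p of 0.057 by edgeR.

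**Figure D3:**
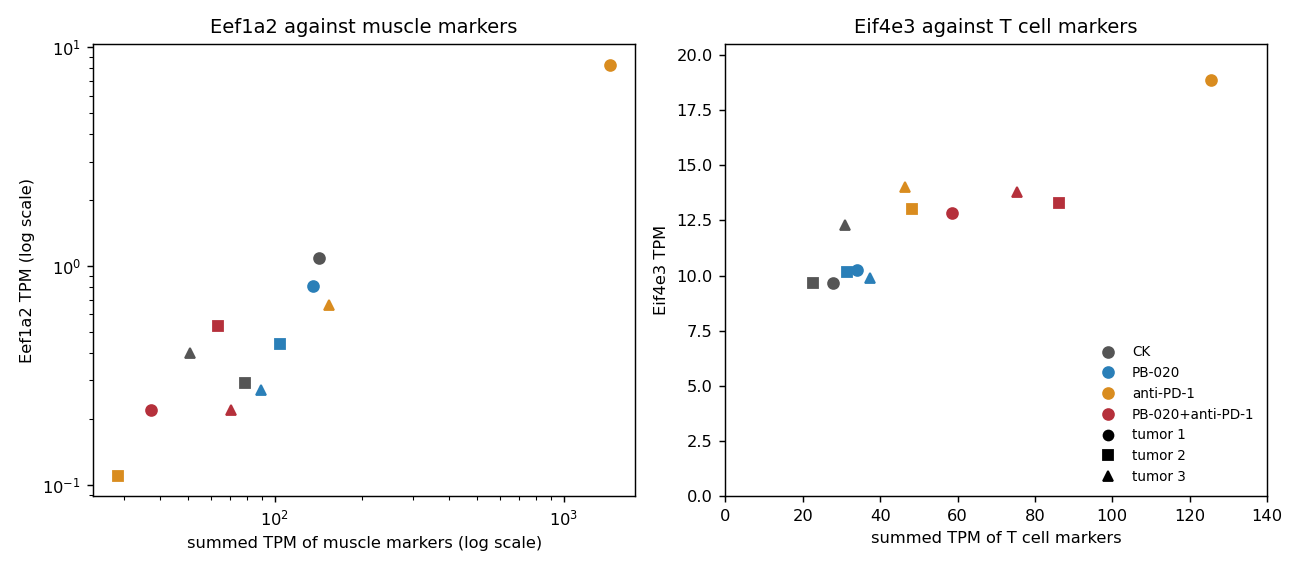
Left, TPM of Eef1a2 against the summed TPM of 12 muscle markers, both on log axes; right, TPM of Eif4e3 against the summed TPM of 9 T cell markers, on linear axes; each point is a tumor, colored by group, with circle, square and triangle for tumors 1, 2 and 3. Anti-PD-1 tumor 1 lies at the far upper right of both plots, at 1446 TPM of muscle markers and 125.5 TPM of T cell markers.

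Eif4e, the main cap-binding protein, changed by 0.19 ± 0.083 in the combination (adjusted p = 0.13), the scaffold Eif4g1 by 0.047 ± 0.073 (adjusted p = 0.69) and the helicase cofactor Eif4b by 0.054 ± 0.088 (adjusted p = 0.70). Of the proteins that hold Eif4e inactive until mTORC1 phosphorylates them, Eif4ebp1 gave 273.6, 263.4 and 276.4 CPM in CK and 300.6, 305.5 and 288.3 with PB-020. It gave 243.3, 268.7 and 265.0 CPM with the combination. All PB-020 tumors were above all others in CPM of this gene. In TPM PB-020 tumor 3, at 590.8, was below CK tumor 3, at 608.3. Its log2 change was 0.14 ± 0.060 in PB-020 (adjusted p = 0.87) and -0.20 ± 0.060 between the combination and PB-020 (adjusted p = 0.075). Eif4ebp2 and Eif4ebp3 changed by 0.077 ± 0.076 and -0.14 ± 0.21 in the combination (adjusted p = 0.50 and 0.67).

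Among genes named for elongation, Eef1e1 had the largest called change of all the factors. Its product is a scaffold of the multi-tRNA synthetase complex rather than a subunit of the tRNA delivery factor. Eef1e1 (chr13:38645691-38659028) gave 24.2, 23.0 and 27.0 CPM in CK, 27.1, 28.2 and 34.0 with PB-020, 28.6, 28.2 and 35.0 with anti-PD-1 and 38.0, 43.7 and 32.6 with the combination. Every treated tumor was above every CK tumor in CPM, PB-020 tumor 1 only barely. In TPM that tumor, at 52.26, was below CK tumor 3, at 55.61. The log2 change in the combination was 0.62 ± 0.13, or 1.54 times (adjusted p = 0.0068). In PB-020 it was 0.27 ± 0.13 (adjusted p = 0.87) and in anti-PD-1 0.31 ± 0.13 (adjusted p = 0.14).

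Of the factors that deliver tRNAs and move the ribosome, none was called. In the combination Eef1a1 changed by -0.090 ± 0.10, Eef2 by -0.093 ± 0.095, and the exchange factor subunits Eef1b2, Eef1d and Eef1g by 0.010 ± 0.083, 0.064 ± 0.076 and 0.14 ± 0.077, with adjusted p values from 0.23 to 0.95. Eef2k, the kinase that switches off eEF2, changed by -0.12 ± 0.080 (adjusted p = 0.32). Eif5a and Eif6, which keeps the large subunit free, changed by 0.16 ± 0.072 and 0.17 ± 0.078 (adjusted p = 0.13 and 0.14), and Eif5a2 by 0.027 ± 0.11.

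Eef1a2, the form of eEF1A found in muscle and nerve, gave 8.20 CPM in anti-PD-1 tumor 1 and 0.12 to 1.16 CPM in the other 11 tumors. In this tumor 12 muscle markers were also at their highest, at 1446 TPM. The log2 change of Eef1a2 in anti-PD-1, 2.27 ± 1.16 (adjusted p = 0.25), was the largest value among the factors and rested on that tumor. In the combination its change was -0.78 ± 1.37 (adjusted p = 0.73).

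**Figure D4:**
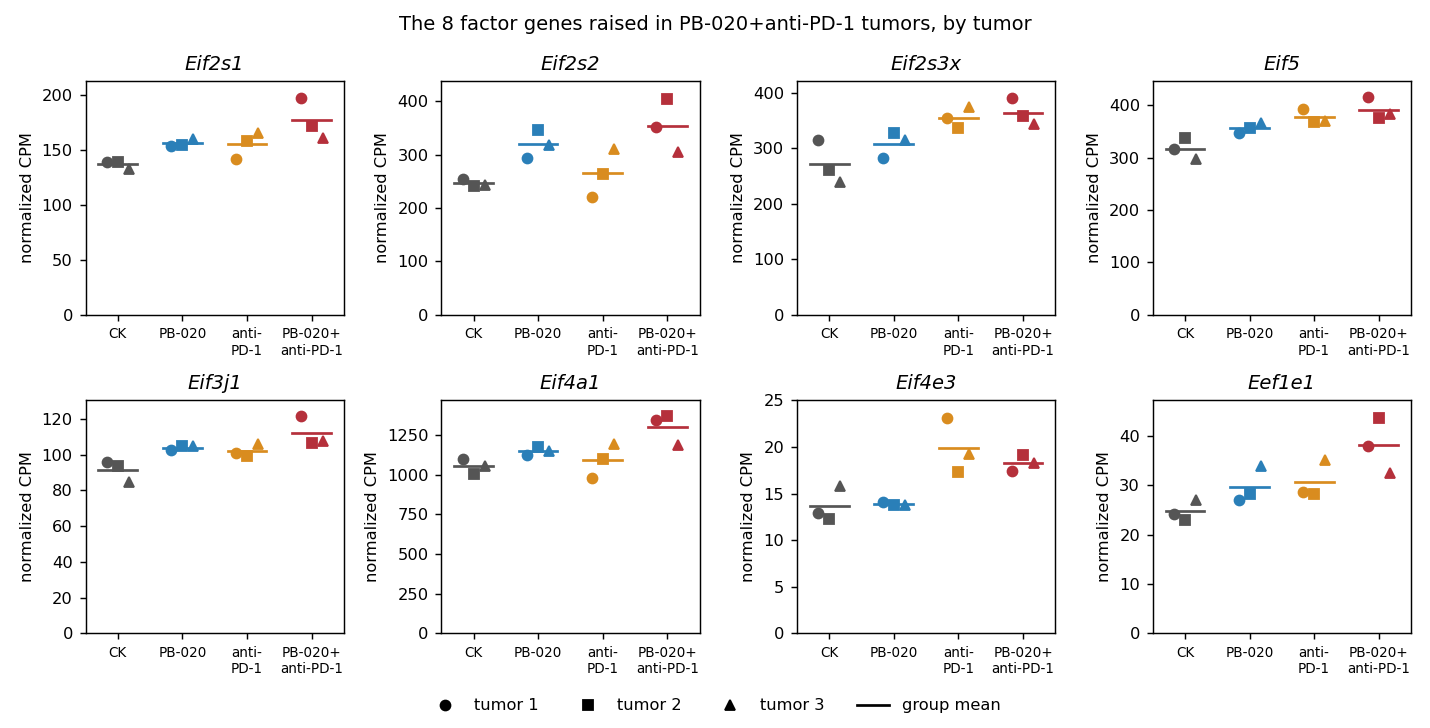
CPM of the 8 genes raised in the combination, in each tumor (circle, square and triangle for tumors 1, 2 and 3), with a line at each group mean and axes from 0. For each gene all 3 combination tumors lie above all 3 CK tumors in CPM, which does not hold for Eif5 in TPM. For Eif4e3 the PB-020 tumors, at 13.7 to 14.1 CPM, lie within the CK range.

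Across all 61 genes the direction in the combination was mostly upward among the clearer changes. At an unadjusted p under 0.05, 19 (31.1%) were higher, against 16.5% of all genes, and 0 were lower, against 17.4%. Without CK tumor 2 the 19 became 11, and without combination tumor 1 or 2 they became 12, counted in either direction. All 3 combination tumors were above all 3 CK tumors in CPM in 18 genes (29.5%, against 19.6% of all genes) and below them in 2 (3.28%, against 21.2%), Eif4e2 and Eif2d. The changes were small: 1 gene, Eef1e1, passed 1.5-fold with an unadjusted p under 0.05 (1.64%, against 4.95% raised in all genes), and the median over the 61 was 0.054, against -0.0026 over all genes. Under the alternatives the median over the factors ran from 0.023 to 0.067. Between tumors of a group it varied with an SD of 0.040 on the log2 scale.

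The proliferation markers Mki67, Top2a, Ccnb1, Cdk1 and Bub1 were also higher in the combination, where 4 of the 5 rose. Their sum was 619.6 to 715.3 TPM in CK, 625.4 to 874.0 in PB-020, 815.9 to 931.4 in anti-PD-1 and 851.4 to 941.4 in combination tumors, and none was at 0. Of 6 fibroblast markers, 3 were lowered, Col3a1, Dcn and Pdgfra. The sum of the 6 was 3119 to 4303 TPM in CK and 1359 to 2023 in combination tumors, most of it from Col3a1 (2089 to 2744 against 636.5 to 906.5) and Dcn (578.7 to 924.8 against 223.4 to 350.1). Lum, Col1a1 and Col1a2 were not called, and Lum lay at 9.46 to 16.1 TPM in CK and 19.5 to 50.3 in combination tumors. All 5 erythroid markers were lowered too, with a sum of 1218 to 2760 TPM in CK and 223.6 to 305.0 in combination tumors. The part of these shifts in the levels of the factors was not tested.

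The 8 calls depended on single tumors, as did the 2434 calls among all genes. Without combination tumor 1, Eef1e1, Eif2s1 and Eif2s2 stayed past the threshold (3 calls, and 1085 among all genes). Without CK tumor 2 there were 4 calls (864 among all genes) and without combination tumor 2 there were 5 (1160). Without anti-PD-1 tumor 1 there were 13 (3344 among all genes), the same 8 and Eif1a, Eif1ax, Eif3e, Eif3m and Eif4e. Without combination tumor 3 there were 12 calls (2045 among all genes). Eef1e1 and Eif2s1 passed in each of the 12 fits that left out a tumor.

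With anti-PD-1 alone, 3 factors rose, Eif4e3, Eif2s3x and Eif5, and 0 fell. This was 4.92% of the 61, against 4.18% of all genes raised and 4.08% lowered. At an unadjusted p under 0.05, 10 (16.4%) were higher, against 13.6% of all genes, and 0 were lower, against 13.0%. The 10 became 5 when any single PB-020 tumor was left out of the fit, in which all groups share 1 estimate of the spread. All 3 tumors lay above CK in CPM in 12 genes (19.7%, against 13.9%) and below in 2 (3.28%, against 15.2%), Eif4e2 and Eif4a3. At 1.5-fold with an unadjusted p under 0.05 there were 0 raised, against 4.50% of all genes. The 3 calls were not stable: there were 0 without anti-PD-1 tumor 1, without anti-PD-1 tumor 3 or without CK tumor 2, and 1 without CK tumor 1 or CK tumor 3. Calls among all genes fell as well, from 1120 to 625, 238 and 137 in the fits with 0. In the fits with 1 they fell to 748 and 637.

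With PB-020 alone no factor passed an adjusted p of 0.05 by edgeR, as for all genes (0%). DESeq2 called 0 factors and 6 of all genes. At an unadjusted p under 0.05, 7 factors (11.5%) were higher, against 3.12% of all genes, and 0 were lower, against 2.34%. The 7 were Eif2s1, Eif2s2, Eif1a, Eif5, Eif3j1, Eif4e and Eif4ebp1. Counted in either direction, they became 3 without CK tumor 3 or PB-020 tumor 3 and 4 without CK tumor 1 or PB-020 tumor 2. All 3 PB-020 tumors were above CK in CPM in 16 genes (26.2%, against 7.78%) and below in 2 (3.28%, against 6.47%), Eif4e2 and Eif4enif1. No such share of all genes was counted in TPM. There Eef1e1, Eif5, Eif4a1, Eif4a2, Eif2a, Eif2d, Eif3i and Eif4ebp1 of the 16 overlapped CK. The lowest adjusted p was 0.87, and the median change was 0.040 (0.0075 to 0.071 under the alternatives).

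**Figure D5:**
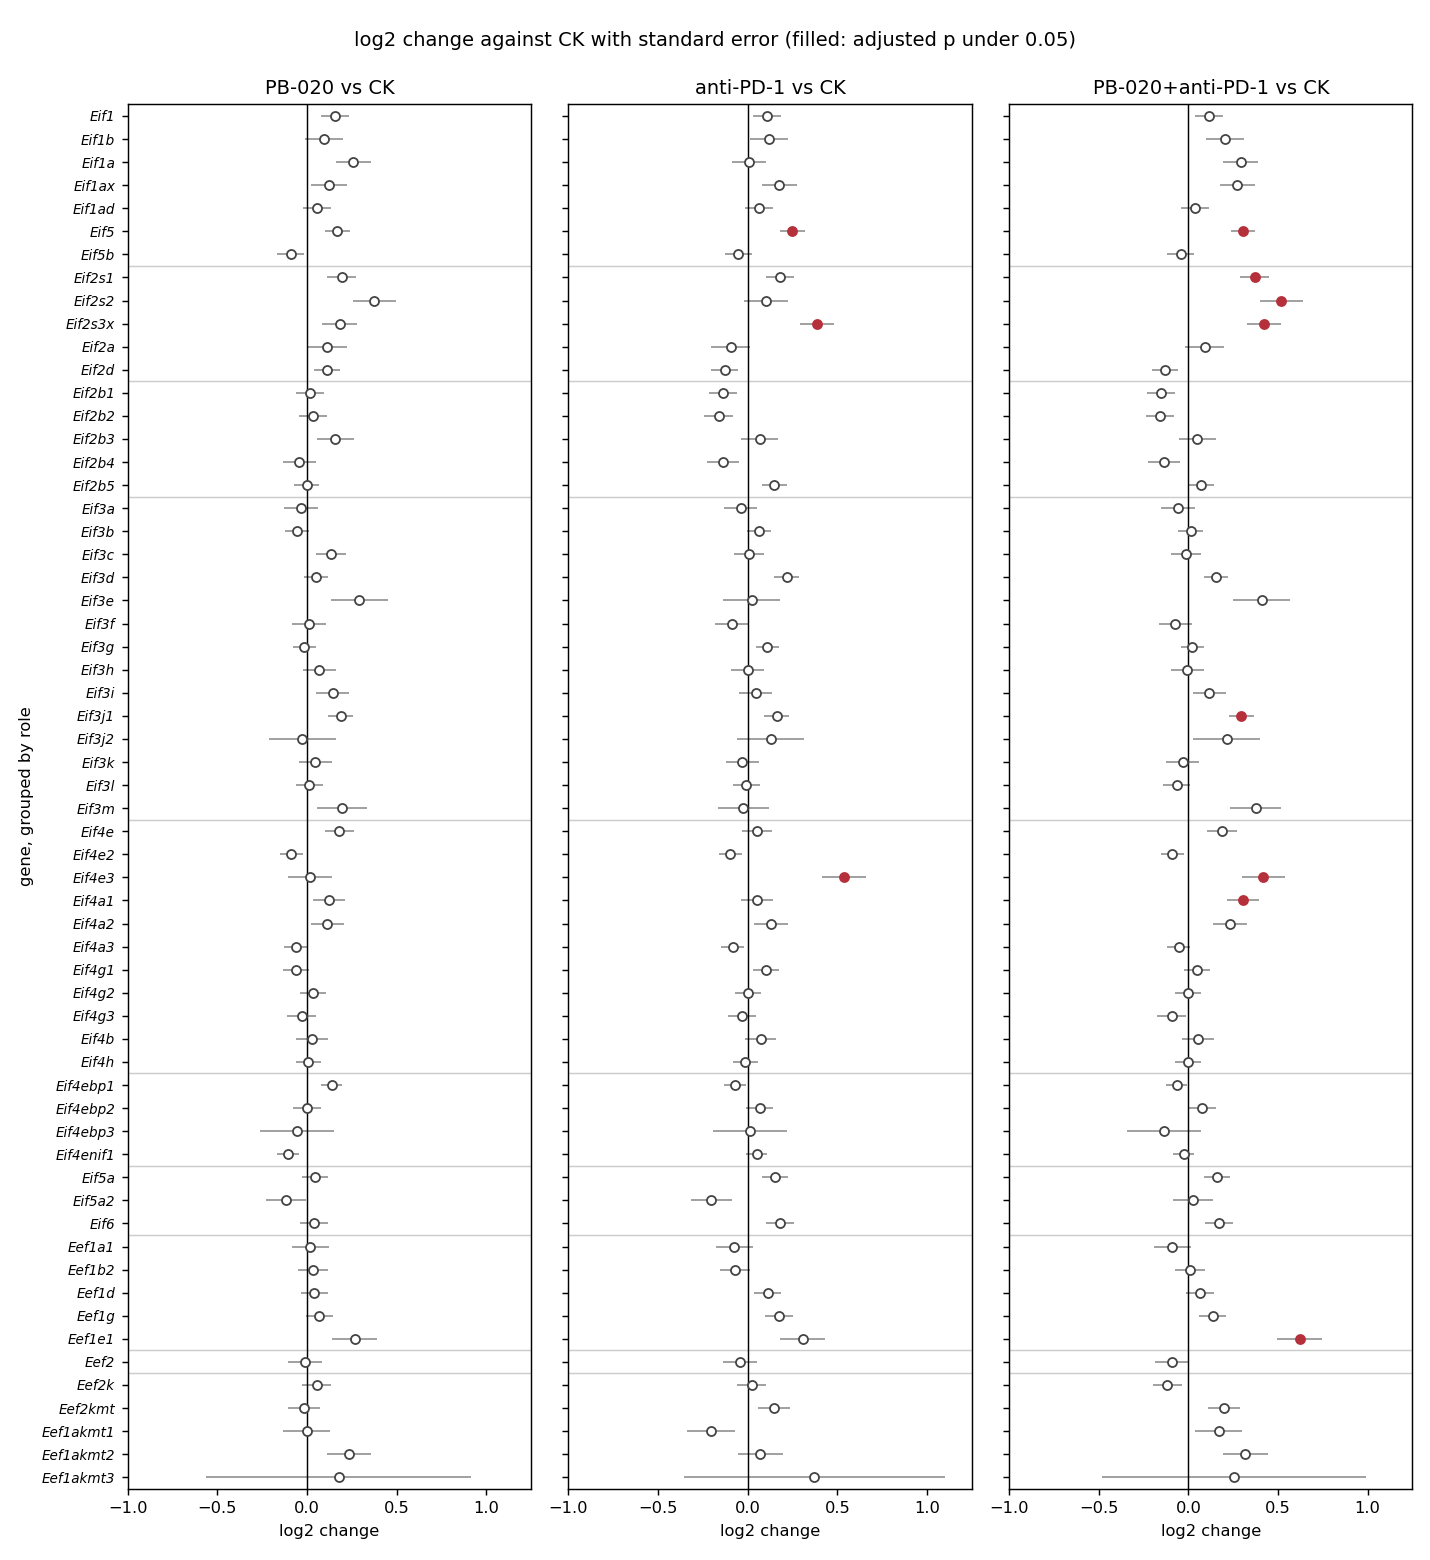
log2 change against CK with its standard error for 60 factors, ordered by role, in the 3 comparisons with CK; filled points have an adjusted p under 0.05, and Eef1a2, with a standard error above 1, is not drawn. Of the filled points, 8 lie in the combination, 3 in anti-PD-1 and 0 in PB-020, all to the right of 0.

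Between treatments no factor passed an adjusted p of 0.05 by edgeR. Against anti-PD-1 alone, where 0% of all genes were called, 8 factors in the combination were higher at an unadjusted p under 0.05 (13.1%, against 4.45% of all genes). Eif2s2 led these with 0.42 ± 0.12 (adjusted p = 0.66), and 1 was lower, Eef1a2 (1.64%, against 2.81%). These 9 became 2 without anti-PD-1 tumor 1 and 4 without combination tumor 2. Against PB-020 alone, where 3.35% of all genes were called, 5 factors were higher at an unadjusted p under 0.05 (8.20%, against 10.2%) and 4 lower (6.56%, against 12.3%). These 9 became 4 without combination tumor 1, 5 without PB-020 tumor 1 and 6 without PB-020 tumor 3. The smallest p belonged to Eif4ebp1 (lower), Eif4e3 (higher, 0.40 ± 0.12, adjusted p = 0.080) and Eif2d (lower, -0.24 ± 0.075, adjusted p = 0.081). The interaction, which asks whether the combination differed from the sum of the single treatments on the log2 scale, was called for 0% of all genes. At an unadjusted p under 0.05 it gave 1 factor, Eif5a2 (1.64%, against 2.29%), at 0.35 ± 0.16 (adjusted p = 1). With a tumor left out the count ran from 0 to 3. By DESeq2, 0 factors passed against anti-PD-1 (1 of all genes) or in the interaction. Against PB-020, 1 factor passed, Eif4ebp1 (1109 of all genes). The comparisons with CK share the same 3 CK tumors.

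Other genes of the translation pathway, 54 of 55 tested, moved both ways in the combination, with 7 raised and 7 lowered (13.0% each, against 8.35% and 9.60% of all genes). Of the eIF2 kinases, Eif2ak3, which answers stress in the endoplasmic reticulum, fell by 0.43 ± 0.081 on the log2 scale (adjusted p = 0.0050) and Eif2ak1, the heme-regulated kinase, fell by 0.23 ± 0.070 (adjusted p = 0.036). Eif2ak2 and Eif2ak4 changed by 0.31 ± 0.21 and 0.12 ± 0.077 (adjusted p = 0.33 and 0.30). In the mTORC1 list 4 of 14 genes fell (28.6%, against 9.60% of all genes) and 1 rose. They were Pdcd4, an inhibitor of Eif4a1, by 0.41 ± 0.081 (adjusted p = 0.0060), the mTORC1 subunit Mlst8 by 0.32 ± 0.081 (adjusted p = 0.017), and Tsc1 and Tsc2, which restrain mTORC1, by 0.29 ± 0.077 and 0.30 ± 0.078 (adjusted p = 0.022 and 0.019).

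Larp1, which controls mRNAs of ribosomal proteins, rose by 0.30 ± 0.086 (adjusted p = 0.028). The others raised were Paip1, a partner of the poly(A) binding protein (0.28 ± 0.061), the reinitiation factor Mcts1 (0.41 ± 0.12), the ribosome recycling factor Abce1 (0.29 ± 0.078), the release factors Etf1 (0.22 ± 0.060) and Gspt2 (0.44 ± 0.13), and the mitochondrial elongation factor Tsfm (0.36 ± 0.11). Their adjusted p values lay between 0.0092 and 0.036. Gigyf2, a translational repressor, fell by 0.21 ± 0.064 (adjusted p = 0.041). In anti-PD-1 Larp1 and Gspt2 rose and Eif2ak3 and Pdcd4 fell (3.70% each way, against 4.18% raised and 4.08% lowered in all genes), and in PB-020 0 of the 54 were called. Between the combination and PB-020 2 were called (3.70%, against 3.35% of all genes): Pdcd4 fell by 0.36 ± 0.081 (adjusted p = 0.035) and Ppp1r15a, which brings a phosphatase to eIF2, by 0.59 ± 0.15 (adjusted p just under the threshold, 0.05 when rounded).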

How the data were processed

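RNA of 12 MC38 tumors was sequenced by the authors as pairs of 150 bases, and the reads were aligned with Bowtie2 at default settings and quantified with RSEM. As reference the methods give mm10 or hg19, and the submitters' processing notes name GRCm38.p6, Bowtie2 and HISAT; versions are not given in the sources used here. The authors deposited expected counts, which are estimated counts and not normalized. The deposited FPKM values are scaled by gene length and library total, and the deposited TPM values so that libraries share a total. The authors' group averages were not used. Of 18211 genes, 18091 (99.3%) matched RefSeq by gene number, as did all 62 factors, and 46 had a promoter in the table. Factors without a promoter there were Eif1a, Eif2b3, Eif3e, Eif3h, Eif3i, Eif3j2, Eif4e1b, Eif4e3, Eif4g2, Eif4ebp1, Eif4ebp3, Eif6, Eef1d, Eef1g, Eef1akmt1 and Eef1akmt3. Coordinates are 1-based on GRCm38.p6.

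Expected counts (whole in 91.0% of values, within 0.005) were rounded, filtered with filterByExpr (minimum count 10), scaled by TMM and fitted with edgeR 4.0.16 in R 4.3.3, with robust quasi-likelihood tests and 4 group means over all 12 tumors. p values were adjusted over 13563 genes. CPM are TMM-scaled and TPM are as deposited. Standard errors come from the fit. The script was tested on simulated data. DESeq2 1.42.0, limma 3.58.1 on log2(FPKM + 1) and log2(FPKM + 0.1), other scalings and filters, a fit of only the groups compared, a replicate block and each tumor left out were tried as alternatives. Depth was 16545394 to 17217035 counts per tumor. No 2 tumors had equal counts in more than 1.72% of genes.

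The factors, their roles, the other translation genes, the markers and the rule for naming were chosen with earlier results of these data known. Named were factors past an adjusted p of 0.05, the 3 raised and 3 lowered with the smallest p in each comparison with CK, a list of core factors by role, the highest and lowest by level, and their paralogs. Other factors were named after their values were seen, as were the promoter motifs and the Y-linked genes.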

Additional observations from a re-analysis of the deposited data

Results flagged for a closer look

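Among the factors, 2 had all tumors of a treated group above CK and all tumors of another treated group below it in CPM. Neither kept this pattern in TPM. Whether these effects differ was not tested for Eif4enif1, and for Eif2d the combination was compared with PB-020 directly. Eif4enif1, which carries eIF4E into the nucleus, changed by -0.105 in PB-020 (log2, edgeR adjusted p = 0.87), with 77.3, 83.3 and 77.1 CPM against 84.2, 85.5 and 86.1 in CK. In anti-PD-1 it gave 92.1, 86.5 and 86.2 CPM, of which the lowest barely exceeded the highest CK tumor. Its anti-PD-1 tumors, at 41.96 to 50.19 TPM, overlapped CK, at 42.05 to 44.85 TPM. Eif2d changed by 0.112 in PB-020 (adjusted p = 0.89) and by -0.13 in the combination, and its difference between the combination and PB-020 was -0.24 (adjusted p = 0.081).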

How the results depend on the processing

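In the combination the 8 calls became 12 with DESeq2, 9 with DESeq2 size factors or the strict filter, 8 with library size alone, without a filter and with limma at either pseudocount, and 11 in a fit of only the groups compared. Leaving out a tumor gave 3 to 13 calls. Among all genes the 2434 calls became 2775 with DESeq2, 2054 without a filter and 2988 in the fit of only the groups compared. They ran from 864 to 3344 when a tumor was left out. With anti-PD-1 the 3 calls became 4 with DESeq2, 2 without a filter and with limma at either pseudocount, and stayed at 3 with the other scalings and the strict filter. Eif5 was the call lost without a filter (adjusted p = 0.059) and with limma (0.052). The count was 0 in the fit of only the groups compared, where fewer tumors set the spread, and 0 to 4 when a tumor was left out. Among all genes the 1120 calls with anti-PD-1 became 3 in the fit of only the groups compared and 1672 with DESeq2. They ran from 137 to 1905 when a tumor was left out. Between the combination and PB-020 the count of 0 became 1 with DESeq2 (Eif4ebp1, lower), 1 in the fit of only the groups compared (Eif4e3, higher) and 0 to 2 when a tumor was left out. The 2 were Eif2d and Eif4e3, without anti-PD-1 tumor 1. Among all genes the 455 calls of this comparison became 1109 with DESeq2 and 1535 in the fit of only the groups compared. Without anti-PD-1 tumor 1 they became 1269. For PB-020, the combination against anti-PD-1 and the interaction, the count was 0 in every alternative run. No called change reversed its sign, and the cause of the lost calls was not tested.

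Tumor numbers did not pair the samples: the 18 correlations between same-numbered tumors of different groups ran from -0.21 to 0.29, 2 of them above 0.1, and a tumor matched its own number best in 6 of 36 comparisons. With the replicate block the combination gave 7 calls (Eif4a1 was lost) and anti-PD-1 gave 2 (Eif5 was lost). Among all genes this fit gave 2010 calls in the combination and 870 in anti-PD-1. Changes of uncalled factors that switched sign without a call under an alternative, 77 of 2263 refits of named factors, are not listed. Genes near the filter, such as Eef1akmt3 with 1 to 13 expected counts and Eef1a2 with 2 to 140, have wide errors, and a change in them was not detectable at this depth unless large.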
